A study of Homo sapiens with 6 samples.

Results

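The genes described here are 209 long intergenic non-coding RNA names, those written as LINC followed by a number, that had reads in Huh7 cells. Huh7 is an established line from a human hepatocellular carcinoma. The 209 were chosen by name and by level: 1 row was kept for each gene name, and a name was kept when its mean over the 6 libraries reached 1 CPM (the gene's counts per 1e6 counts of the library). They make up 209 of 678 LINC names and 209 of 27394 gene names in the deposited table. The remaining 469 LINC names lay below a mean of 1 CPM. The measured mean level over both groups chose the members, so their levels are a description, while the difference between the groups was not used in the choice.

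The study compared 3 RNA-seq libraries of Huh7 cells carrying a control shRNA, labelled as wild type, with 3 libraries of Huh7 cells in which CTSV was knocked down by shRNA. Cathepsin V, its product, is a protease of the lysosome. Both groups share the parent line and the culture medium, and the labels do not give the shRNA sequences or the number of clones. Nothing says that libraries with one label were grown apart. Every p-value therefore sets the group difference only against the variation among these libraries, and that variation may be technical. A lower value per library cannot be assigned to fewer expressing cells or to less RNA per cell, since each library is a bulk sample.

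Long intergenic non-coding RNAs are transcribed by RNA polymerase II from their own promoters, and most are capped, spliced and polyadenylated like messenger RNAs. Many stay in the nucleus and are turned over there by the nuclear exosome, while others reach the cytoplasm. Some act on genes beside their own site, some bind proteins or microRNAs at a distance, a few were later found to encode small proteins, and for many no function is known. In liver cancer several have been studied for altered levels in tumours.

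The libraries held 16258803 to 18106207 counts. CTSV, the targeted gene, had 755, 740 and 658 counts in control libraries and 304, 264 and 296 in knockdown ones, a log2 fold change of -1.34 (SE 0.0958, edgeR quasi-likelihood test, Benjamini-Hochberg adjusted p = 7.2e-14). Of the 9 hepatocyte and hepatoma markers listed, all were detected, from 62.1 CPM for APOA1 to 12424 CPM for ALB. Of the markers of other cells with a value here, CD3E (T cells) was at 0.121 CPM and COL1A1 (fibroblasts) at 0.29 CPM, whereas PECAM1 was at 18.7, LUM at 38.7 and KRT19 at 62.1 CPM. Across 15968 tested genes, 2982 were called higher in the knockdown libraries (18.7%) and 3451 lower (21.6%) at an adjusted p under 0.05, which is 40.3% in either direction.

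Most of the LINC-named RNAs were scarce. The median mean level was 2.96 CPM, with 74 members from 1 to 2 CPM, 98 from 2 to 10 CPM and 37 at 10 CPM or more. No member was at 0 in any library, and all 209 passed the filter on low counts. Just inside the limit lay LINC01239, LINC00893 and LINC02046, each at 1.00 CPM, and just outside it LINC00513 at 0.971, LINC01341 at 0.967 and LINC01271 at 0.944 CPM. By GENCODE release 29 annotation 172 of the names were lincRNA, 12 processed transcripts, 11 antisense, 6 transcribed unprocessed pseudogenes and 3 bidirectional promoter transcripts. A further 3 were annotated as protein coding, and 23 of the names matched in the gene name table now carry another symbol. The members had a median of 3 exons, and 14 had a single exon in every transcript. Their exonic length had a median of 2802.5 bases, from 246 to 27605 bases.

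More of these RNAs rose than fell. At an adjusted p under 0.05, 59 of the 209 were called higher in the knockdown libraries (28.2%), 6 lower (2.87%) and 65 in either direction (31.1%), leaving 144 not called. Among all 14409 tested genes with a mean of 1 CPM or more, 19.7% were called higher, 23.8% lower and 43.5% in either direction. In 76 members (36.4%) all 3 knockdown libraries lay above all 3 controls, and in 6 (2.87%) all 3 lay below. The same held for 24.1% and 25% of all tested genes, and for 24.6% and 27.3% of those at 1 CPM or more. With a change of at least 2-fold required as well, 24 members were higher (11.5%) and 2 lower (0.957%). Over all tested genes, at any level, the shares were 4.23% and 0.958%. Of the 12 largest of these rises, 9 reached 1 CPM in the knockdown mean alone, and so entered the set through the group where they were high. Of the 2 falls, LINC01503 entered through the control mean alone. These 2-fold shares are a description and not support for a direction. The median log2 fold change of the members was 0.32, with a middle range from -0.00 to 0.73, and 156 of 209 values were above 0. The median over all tested genes was 0.02 and over those at 1 CPM or more 0.00. When each library was left out in turn, 35 rises and 3 falls were called in every fit.

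**Figure D1:**
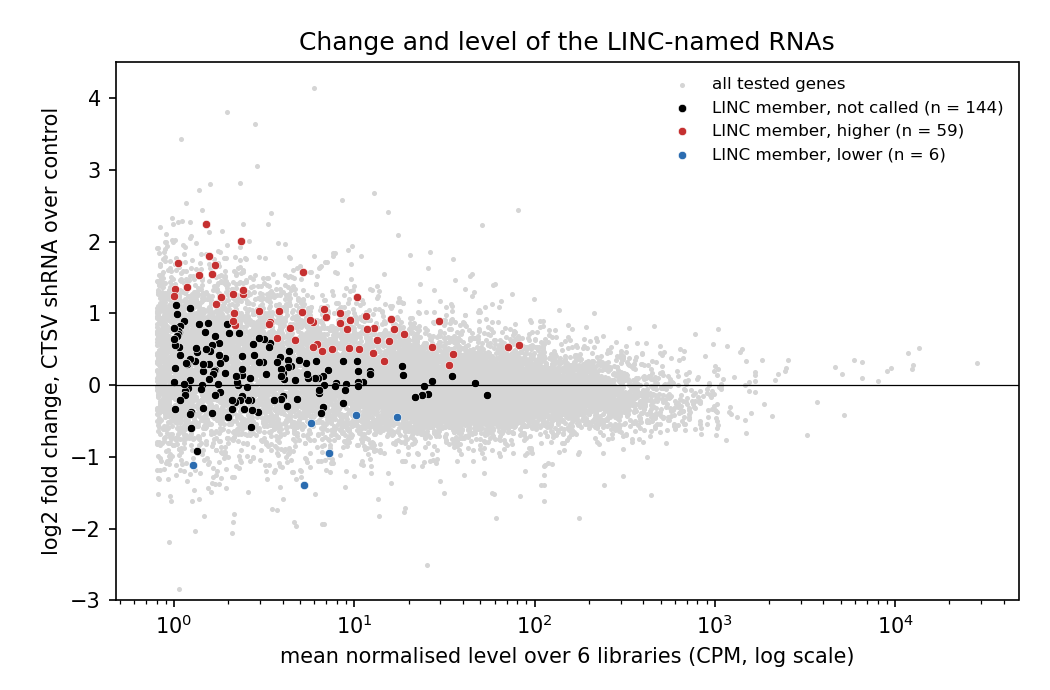
Log2 fold change of the CTSV shRNA libraries over the controls (vertical axis) against the mean normalised level over the 6 libraries in CPM (horizontal axis, log scale), for tested genes at 0.8 CPM or more in grey and for LINC members in black (not called), red or blue. The 59 members called higher (red) are spread over the whole range of levels up to LINC01419, and the 6 called lower (blue) lie between -1.40 and -0.42 on the log2 scale.

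As a group the 209 members held a larger part of the counts in the knockdown libraries. Their share was 0.126%, 0.119% and 0.123% in control libraries and 0.155%, 0.155% and 0.159% after CTSV knockdown. The groups did not overlap, and the ratio of the means was 1.28 (0.123% ± 0.0037 against 0.157% ± 0.00211, SD, n = 3 each; exact two-sided permutation p = 0.1, the smallest that 3 libraries against 3 can give). The rise was not carried by the RNA of highest level, since the ratio was 1.26 without it. It was 1.30 for the 8 members of highest level and 1.27 for the other 201. The 469 LINC names below 1 CPM moved alongside, from 0.00842% ± 0.000348 to 0.0123% ± 0.000718 of the counts, a ratio of 1.46. Counts of mitochondrial genes also differed between the groups, 9.23% ± 0.245 in controls and 11.6% ± 0.208 in knockdown libraries, and with those genes left out of the totals the ratio for the members was 1.31.

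**Figure D2:**
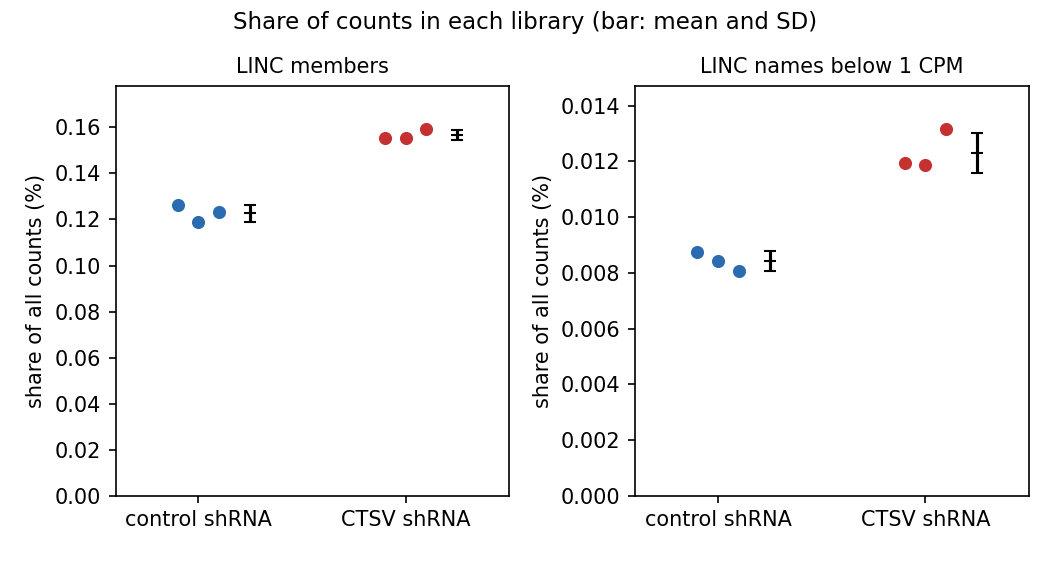
Share of all counts, in percent, held by the 209 members (left) and by the 469 LINC names below 1 CPM (right) in each library, with the mean and SD beside the points. The 3 knockdown libraries lie above the 3 controls in both panels.

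The share of members called rose with their level. At 1 to 2 CPM 12 of 74 were higher and 1 lower, at 2 to 5 CPM 14 of 61 and 0, at 5 to 10 CPM 15 of 37 and 3, and at 10 CPM or more 18 of 37 (48.6%) and 2 (5.41%). Protein-coding genes showed a different balance at the upper end: of 9084 at 10 CPM or more, 18.7% were higher and 33.9% lower. That range has no upper limit. The member of highest level, LINC01419, had a mean of 82.6 CPM, while the coding gene ALB had 12424 CPM. The median SE in that range was 0.078 for coding genes and 0.12 for members. Members and coding genes were thus not matched for level in it. Of 49 lincRNA genes with another name at 10 CPM or more, 63.3% were higher and 12.2% lower. At 1 to 2 CPM the coding genes were closer to the members, with 105 of 751 higher and 22 lower. At 2 to 5 CPM 223 of 1091 coding genes were higher (20.4%) and 69 lower (6.32%), against 23.0% and 0% of members. The median log2 fold change of the members was 0.42, 0.26, 0.21 and 0.27 over the 4 level ranges from low to high, and that of coding genes 0.32, 0.22, 0.10 and -0.07. Over all levels from 1 CPM, 19% of coding genes were higher, 27.3% lower and 46.4% either. No test of the difference between these groups of genes was made.

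Other non-coding genes had a balance of calls near that of the members. Of 394 lincRNA genes with another name and a mean of 1 CPM or more, 24.6% were higher, 3.3% lower and 27.9% either, and of 606 antisense genes 22.4%, 2.31% and 24.8%. Processed pseudogenes differed from both in direction, with 9.43% higher, 18% lower and 27.4% either among 350. LINC names below 1 CPM that could still be tested numbered 56, of which 7 were higher (12.5%) and 0 lower (0%), or 12.5% either way.

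**Figure D3:**
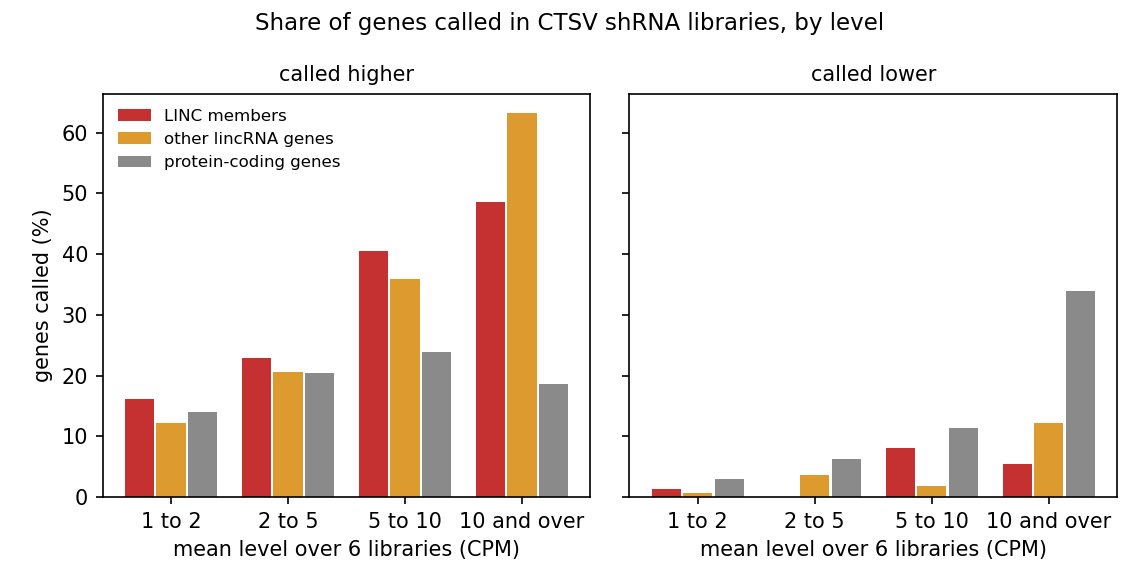
Percent of genes called higher (left) and lower (right) in CTSV shRNA libraries, by mean level over the 6 libraries in CPM, for LINC members, other lincRNA genes and protein-coding genes. At 10 CPM or more 48.6% of members were called higher and 5.41% lower, while protein-coding genes reached 18.7% and 33.9% and other lincRNA genes 63.3% and 12.2%. This last range has no upper limit, and members and coding genes were not matched for level in it.

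The choice by a mean over both groups lets in an RNA through the group where it is high. Of the 209, 179 had a mean of at least 1 CPM in both groups, 49 of them higher and 5 lower, with a median log2 fold change of 0.26. A further 27 reached 1 CPM in the knockdown mean alone, with 10 higher and 0 lower, and 3 in the control mean alone, with 0 higher and 1 lower.

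The 8 RNAs of highest level include 5 that rose. LINC01419, which has been studied as a transcript raised in hepatocellular carcinoma, had 69.2, 70.1 and 61.4 normalised CPM in controls and 102, 94.8 and 97.8 under CTSV shRNA. All 3 knockdown libraries were above all 3 controls, and the means of 66.9 ± 4.78 and 98.1 ± 3.56 (SD, n = 3 each) gave a log2 fold change of 0.55 (SE 0.0639, edgeR adjusted p = 7.4e-09). Per kilobase of exonic sequence it was also the most abundant member, at 54.3 CPM per kb against a median of 1.48 over the members.

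LINC00969, now named MUC20-OT1 and placed on chromosome 3 beside near-identical pseudogene copies, was at 58.1, 55.2 and 63.0 CPM in controls and 83.4, 81.1 and 88.7 in knockdown libraries. The groups did not overlap (log2 fold change 0.52, SE 0.067, edgeR adjusted p = 6.0e-08), but reads of LINC00969 and of its copies AC132008.2, MUC20P1 and SDHAP1 may have been split or shared in the counting, so its level is uncertain. LINC01748, on chromosome 1 upstream of NFIA and on the other strand, was at 21.1, 20.6 and 20.1 CPM in controls and 38.7, 34.7 and 41.6 in knockdown libraries. Here the lowest knockdown library exceeded the highest control by a wide margin (20.6 ± 0.508 against 38.3 ± 3.48, log2 fold change 0.89, SE 0.0957, edgeR adjusted p = 1.3e-09).

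LINC00667, on chromosome 18, was at 29.6, 29.9 and 30.8 CPM in controls and 38.8, 41.9 and 41.8 in knockdown libraries. Again no control reached a knockdown library (log2 fold change 0.44, SE 0.0851, edgeR adjusted p = 6.7e-05). It overlaps LINC00526 on the opposite strand, which was not called (0.24, edgeR adjusted p = 0.448), and without knowledge of strand use in the counting the reads of the overlap cannot be assigned to one of them.

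LINC01963 had the smallest called rise of the 8 at 0.27 (SE 0.0936, edgeR adjusted p = 0.0174), from 33.6, 27.9 and 29 CPM to 33.6, 35.9 and 40.0. Control library 1 was level with knockdown library 1. The call was lost without control library 2 (adjusted p = 0.0924), control library 3 (0.0689) or knockdown library 3 (0.128), under DESeq2 (0.0562), and with offsets for length and G and C content, which lowered the value to 0.15 (0.177). With the same offsets LINC01419, LINC00969 and LINC00667 were still called, at smaller values of 0.37, 0.33 and 0.29.

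LINC00963, LINC00641 and LINC02381 completed the 8 and were not called. LINC00963, studied in prostate cancer, was at 59.9, 56.6 and 54.4 CPM in controls and 56.3, 48.5 and 49.9 in knockdown libraries (log2 fold change -0.14, edgeR adjusted p = 0.124). The groups overlapped, yet without knockdown library 1 it passed the test at -0.21 (edgeR adjusted p = 0.0397), and with offsets for length and G and C content at -0.31 (0.000607). LINC00641 lay between 41.8 and 49.6 CPM in all 6 libraries, with a log2 fold change of 0.03 (edgeR adjusted p = 0.777) that became -0.04 without control library 2. HNRNPC, which encodes a nuclear RNA-binding protein and lies 2236 bases upstream on the same strand, was called lower at -0.54.

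The 12 largest rises were in RNAs of low level. Of these RNAs, 9 reached a mean of 1 CPM in the knockdown libraries alone, and so entered the set through the group where they were high: LINC00337, LINC01252, LINC02397, LINC00216, LINC01163, LINC01569, LINC02363, LINC01833 and LINC00870. Their place among the largest rises is a description and is not support for the direction of the members. LINC00337, now named ICMT-DT (ENSG00000225077, chromosome 1, bases 6236240 to 6239444 of GRCh38, plus strand), had 3, 9 and 14 counts in controls and 45, 40 and 42 in knockdown libraries. In normalised CPM these were 0.168, 0.542 and 0.872 against 2.72, 2.42 and 2.31, so that every knockdown library was above the highest control. The log2 fold change was 2.24 (SE 0.463, edgeR adjusted p = 0.000159), a 4.73-fold difference.

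Its start region is printed here because LINC00337 had the largest rise and starts head to head with ICMT. The RefSeq window from 250 bases before to 50 bases after the start on GRCh38.p14, written 5′ to 3′ on its own plus strand, is chr1:6235990-6236289, with capitals on its 33 CG dinucleotides. The bases are 69.7% G or C, the ratio of observed to predicted CG is 0.908, and 225 bases are shared with the window of ICMT on the other strand.
LINC00337: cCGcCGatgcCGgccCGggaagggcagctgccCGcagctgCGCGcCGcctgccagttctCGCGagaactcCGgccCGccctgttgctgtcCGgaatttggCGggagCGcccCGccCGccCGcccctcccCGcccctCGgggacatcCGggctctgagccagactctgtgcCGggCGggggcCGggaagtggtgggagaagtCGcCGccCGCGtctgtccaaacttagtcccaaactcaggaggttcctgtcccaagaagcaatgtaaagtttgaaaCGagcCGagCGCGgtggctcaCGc

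LINC01252 (ENSG00000247157, chromosome 12, bases 11548030 to 11590369, plus strand) had 14, 17 and 16 counts in controls and 50, 65 and 79 in knockdown libraries. The groups were far apart relative to their spread, 0.935 ± 0.131 CPM against 3.77 ± 0.677 (SD, n = 3 each; log2 fold change 2.01, SE 0.341, edgeR adjusted p = 9.4e-06). ETV6, the transcription factor gene 59485 bases downstream of it, was not called at 0.07.

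LINC00907 (ENSG00000267586, on chromosome 18 from base 42159283 to 42691422) rose from a higher base. It had 46, 43 and 43 counts in controls and 104, 161 and 134 in knockdown libraries, or 2.58, 2.59 and 2.68 CPM against 6.29, 9.76 and 7.37. The control libraries were nearly level, the knockdown libraries differed among themselves, and no values overlapped (log2 fold change 1.57, SE 0.221, edgeR adjusted p = 3.5e-07).

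LINC02397 and LINC01163 had non-overlapping groups as well. LINC02397 had 13, 8 and 14 counts in controls and 33, 36 and 56 in knockdown libraries (log2 fold change 1.80, edgeR adjusted p = 0.000712). LINC01163, which lies head to head with the proliferation gene MKI67 at a distance of 54647 bases, had 21, 11 and 9 counts against 46, 33 and 54 (1.67, edgeR adjusted p = 0.0011). MKI67 itself was called higher at 0.18. LINC02363 (1.53), LINC01450 (1.32) and LINC02006 (1.26) also rose without overlap, at edgeR adjusted p-values of 0.00424, 0.00143 and 0.00317.

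Like LINC00337, LINC02397 and others above, the remaining 4 of the 12 largest rises rested on few counts. LINC00216 had 14, 3 and 8 counts in controls and 27, 36 and 19 in knockdown libraries, and its call (log2 fold change 1.70, edgeR adjusted p = 0.00839) was lost without control library 2 (0.0617) or knockdown library 2 (0.0827). LINC01569, downstream of TFAP4 on the same strand by 3397 bases, had 24, 13 and 5 counts against 52, 46 and 24. Its groups overlapped after scaling, since knockdown library 3 at 1.32 CPM was below control library 1 at 1.35 CPM (log2 fold change 1.54, edgeR adjusted p = 0.00583).

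LINC01833 (8, 13 and 12 counts against 40, 30 and 16) was called at 1.36 with an edgeR adjusted p of 0.0222. Knockdown library 3 was the low one of its group. The call was lost under DESeq2 (adjusted p = 0.0536), without knockdown library 1 (0.174) or 2 (0.0763), and without control library 1 (0.105). LINC00870 (13, 11 and 5 counts against 32, 19 and 23) was called at 1.33 with an edgeR adjusted p of 0.0312, and was lost under DESeq2 (0.0702), without control library 2 (0.0536) or 3 (0.138), and without knockdown library 1 (0.173) or 3 (0.0511). Beyond these and the members named by level or list, the other 38 called members were all rises, from 0.33 to 1.26 on the log2 scale.

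Only 6 of the 209 RNAs were called lower, and LINC00941 fell furthest. LINC00941 (ENSG00000235884, chromosome 12, bases 30795681 to 30802711, plus strand) has been studied in several carcinomas. It had 127, 160 and 98 counts in controls and 43, 48 and 57 in knockdown libraries, or 7.12, 9.63 and 6.11 CPM against 2.60, 2.91 and 3.14. Each knockdown library was lower than any control (7.62 ± 1.81 against 2.88 ± 0.268, SD, n = 3 each; log2 fold change -1.40, SE 0.22, edgeR adjusted p = 2.7e-06). CAPRIN2, the coding gene 40730 bases away on the other strand, was called higher at 0.12. The same window at the start of LINC00941, shown as that of the largest fall, is chr12:30795431-30795730 on the plus strand, with capitals on its 21 CG dinucleotides, 66.0% G or C and a ratio of 0.643. As for LINC00337, G and C made up most of the window.
LINC00941: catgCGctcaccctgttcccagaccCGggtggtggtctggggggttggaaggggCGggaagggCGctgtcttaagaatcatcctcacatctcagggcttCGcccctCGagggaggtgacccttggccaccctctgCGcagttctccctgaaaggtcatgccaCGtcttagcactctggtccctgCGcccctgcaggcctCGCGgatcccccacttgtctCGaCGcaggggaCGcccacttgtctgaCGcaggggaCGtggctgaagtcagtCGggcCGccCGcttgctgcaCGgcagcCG

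LINC02331, on chromosome 14 and 98854 bases from BMP4, was at 9.87, 9.51 and 9.34 CPM in controls and 5.02, 4.30 and 5.56 in knockdown libraries. The control libraries agreed closely and the knockdown libraries were all lower (log2 fold change -0.95, SE 0.175, edgeR adjusted p = 3.6e-05). LINC01128, on chromosome 1, was at 18.3, 19.7 and 21.4 CPM in controls and 14.3, 15.9 and 13.4 in knockdown libraries. These did not overlap either (-0.45, SE 0.118, edgeR adjusted p = 0.00238), but LINC01128 has a near-identical copy, AC004908.1, that could share its reads.

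The other three falls were less firm. LINC01503, studied in squamous cell carcinoma, had 24, 40 and 24 counts in controls and 19, 12 and 10 in knockdown libraries (log2 fold change -1.11, SE 0.451, edgeR adjusted p = 0.0469). It reached a mean of 1 CPM in the control libraries alone, and so entered the set through the group where it was high. All knockdown libraries were lower, and the call was lost without control library 2 (adjusted p = 0.251) or 3 (0.0614), without knockdown library 2 (0.128) or 3 (0.187), under DESeq2 (0.0909) and with the replicate number as a block (0.0613). LINC00511, studied in breast and lung cancers, went from 7.51, 6.14 and 6.85 CPM to 3.99, 4.97 and 5.17 (-0.54, SE 0.196, edgeR adjusted p = 0.0272). Its groups did not overlap, and the call was lost under DESeq2 (0.0656), without control library 1 (0.102) or 3 (0.0525) and without knockdown library 1 (0.119).

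LINC00467, which encodes a small protein associated with ATP synthase, was at 12.6, 11.6 and 11 CPM in controls and 10.7, 8.97 and 6.71 in knockdown libraries. Knockdown library 3 was the lowest of the 6 (log2 fold change -0.42, SE 0.158, edgeR adjusted p = 0.0313). Without that library the value was -0.25 (adjusted p = 0.249), and the call was also lost without control library 1 (0.103), without knockdown library 2 (0.0631) and under DESeq2 (0.0833). The nearest coding genes of the 6 falls were called lower in 2 cases (IER5L for LINC01503 at -1.05 and SLC39A11 for LINC00511 at -0.63), higher in 1 and not called in 3.

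**Figure D4:**
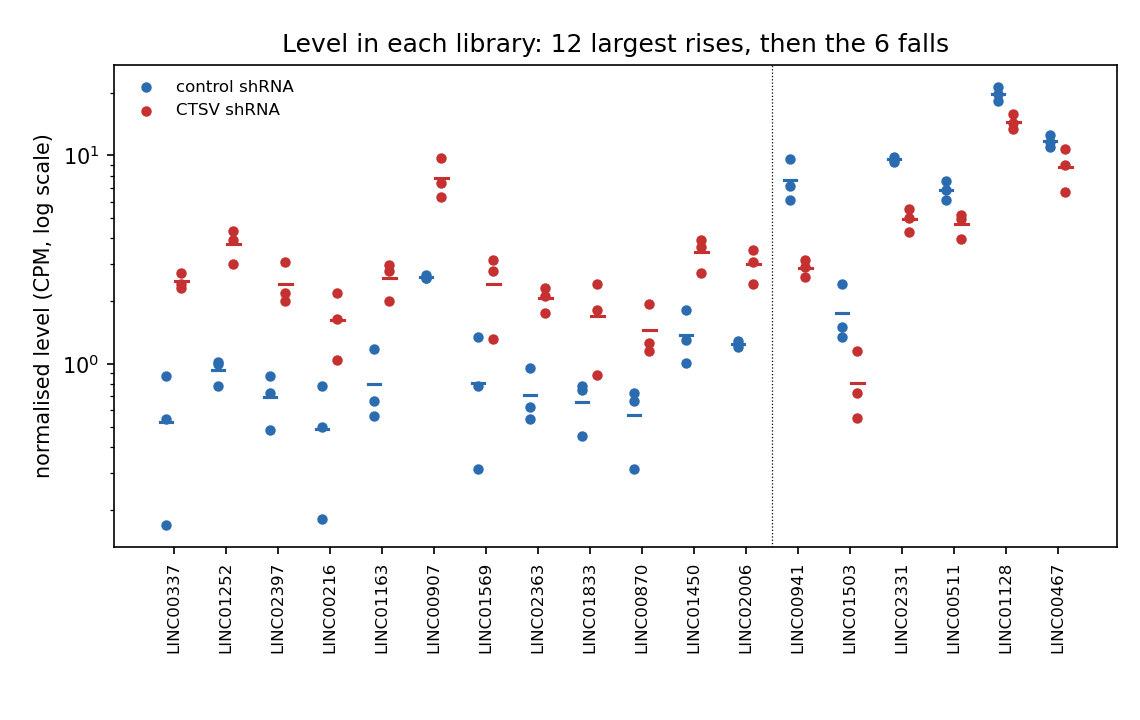
Normalised level in CPM (log scale) in each control (blue) and CTSV shRNA (red) library for the 12 largest rises, from LINC00337 to LINC02006, and the 6 falls, from LINC00941 to LINC00467, with a bar at each group mean. The 3 red points of LINC00337 lie at 2.31 to 2.72 CPM above blue points at 0.168 to 0.872 CPM, whereas those of LINC01569 overlap.

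Members on lists of known or studied roles are described here. Over all 209 members 28.2% were higher and 2.87% lower, and over all tested genes 18.7% and 21.6%. The lists are short, so their counts are a description. Of 11 LINC names listed as linked to liver or endoderm, 4 were members: 2 rose, 0 fell, and the median log2 fold change was 0.56. One of the rises was LINC00907, described above. LINC01146, now named HISLA and known as a transcript that stabilises HIF-1alpha, was at 7.23, 6.92 and 5.92 CPM in controls and 11.6, 10.9 and 12 in knockdown libraries. The groups did not overlap (log2 fold change 0.78, SE 0.156, edgeR adjusted p = 9.8e-05). LINC01348 was not called (-0.11, edgeR adjusted p = 0.696), and leaving out single libraries moved its value from -0.23 to 0.07. LINC02428 was not called either (0.34, edgeR adjusted p = 0.149), with control library 2 low at 4.93 CPM beside 9.59 and 8.53. Its value was 0.53 without control library 1 (edgeR adjusted p = 0.043), 0.10 without control library 2, 0.21 without knockdown library 3 and 0.0070 with offsets for length and G and C content.

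Of 9 names listed with a reported small protein, 2 were members, 0 rose and 1 fell, with a median of -0.50. The fall was LINC00467. LINC00116, now MTLN, encodes mitoregulin, a small protein of the inner mitochondrial membrane. It was at 3.08, 3.73 and 2.74 CPM in controls and 2.96, 2.36 and 1.10 in knockdown libraries. The groups overlapped and the test was not passed (-0.58, edgeR adjusted p = 0.156), except without knockdown library 1 (-0.89, edgeR adjusted p = 0.0497), and without knockdown library 3 the value was -0.26.

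Of 34 names listed as studied in cancer, 16 were members, of which 5 rose, 2 fell and 9 were not called, with a median of 0.22. Over all members 28.2% rose and 2.87% fell. LINC01134, which has been studied in hepatocellular carcinoma, was at 4.43, 6.50 and 5.61 CPM in controls and 12.3, 9.88 and 11 in knockdown libraries. Every knockdown library was above every control (5.51 ± 1.04 against 11.1 ± 1.23, log2 fold change 1.01, SE 0.172, edgeR adjusted p = 1.05e-05). Its start region is shown because it is shared with C1orf174, a coding gene that fell (-0.26). The window is chr1:3900154-3900453 on the plus strand of GRCh38.p14, and its capitals mark the first 50 bases transcribed from C1orf174 on the opposite strand, at positions 70 to 119 of the window. The windows of both genes share 231 bases, and their RefSeq starts are 132 bases apart.
LINC01134: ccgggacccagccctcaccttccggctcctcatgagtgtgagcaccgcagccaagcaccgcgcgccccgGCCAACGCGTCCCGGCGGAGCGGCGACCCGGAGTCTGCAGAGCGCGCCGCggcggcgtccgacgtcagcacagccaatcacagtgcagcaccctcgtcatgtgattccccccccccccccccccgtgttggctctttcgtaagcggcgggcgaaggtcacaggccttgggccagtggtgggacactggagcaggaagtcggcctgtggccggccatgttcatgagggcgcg

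LINC01139, also known as LINK-A, was at 6.50, 8.54 and 8.10 CPM in controls and 9.56, 13.6 and 9.85 in knockdown libraries. The groups did not overlap (0.51, edgeR adjusted p = 0.012), with knockdown library 2 the high one. Without that library the value was 0.33 (adjusted p = 0.165), and the call was also lost without control library 1 (0.0826) and with offsets for length and G and C content (0.0671). LINC01138, in a duplicated stretch of chromosome 1 with near-identical copies, was called at 0.53 (edgeR adjusted p = 0.0372) with overlapping groups. It was lost under DESeq2 (0.11), without knockdown library 2 (0.34 on the log2 scale, adjusted p = 0.271) without control library 1 (0.155) or 2 (0.0874), and with the same offsets (0.0971).

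The other two rises were LINC01419 and LINC00667, and the falls LINC00941 and LINC00511. Those not called had log2 fold changes of 0.99 (LINC00324), 0.53 (LINC00346), 0.29 (LINC00958), 0.15 (LINC01588), 0.10 (LINC00847), 0.03 (LINC00662 and LINC00641), -0.14 (LINC00963) and -0.17 (LINC01608). With offsets for length and G and C content LINC01608 was called lower, at -0.41 (edgeR adjusted p = 0.00147). Low counts limited what could be seen for LINC00324, at 0.695 ± 0.0694 CPM in controls against 1.39 ± 0.423 after knockdown (SD, n = 3 each; edgeR adjusted p = 0.0973).

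A pair of members was singled out for their known function after values had been seen. LINC01578, now CHASERR, lies 488 bases upstream of CHD2, a chromatin remodeller gene that it is known to restrain, and averaged 26.6 ± 3.02 CPM in controls against 27.6 ± 5.28 after knockdown (SD, n = 3 each). Neither it (log2 fold change 0.05, edgeR adjusted p = 0.761) nor CHD2 (0.12) was called. LINC02163, now NIHCOLE, known for promoting DNA end joining in liver cancer cells, was at 3.08, 1.68 and 4.42 CPM in controls and 3.51, 3.15 and 3.58 in knockdown libraries. Those groups overlapped and it was not called (0.16, edgeR adjusted p = 0.698).

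The position of a member beside coding genes was examined next. The nearest tested protein-coding gene overlapped 22 members and lay within 5 kb of, or overlapped, 49. For the 59 members called higher, that gene was called higher in 19 cases, lower in 7 and not called in 33. For the 144 not called it was higher in 33, lower in 33 and not called in 78. Within 5 kb, the neighbours of 15 members called higher were higher in 3 cases, lower in 3 and not called in 9, and none of the 6 falls had a coding gene so near. For the 34 uncalled members within 5 kb, they were higher in 8 cases and lower in 9. Beyond 50 kb, the neighbours of 27 members called higher were higher in 9 cases and lower in 0, and those of 71 uncalled members higher in 16 and lower in 12. Among all tested coding genes at 1 CPM or more, 19% were higher and 27.3% lower. No test of these counts was made. Members that start head to head with a coding gene within 5 kb numbered 11, of which 3 rose, and the neighbours of those 3 were higher in 0 cases and lower in 1.

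Named pairs show each of these outcomes. LINC01134 rose (1.01) while C1orf174, head to head with it at 79 bases, fell (-0.26). LINC00337 rose (2.24) beside ICMT, the gene of the enzyme that methylates prenylated proteins, which was not called at -0.01. LINC01004 rose (0.79) beside KMT2E, a chromatin regulator gene not called at 0.14, though its call was lost without knockdown library 3 (adjusted p = 0.0608). LINC01268, now MROCKI and known for acting on MARCKS in macrophages, rose from 4.93, 5.05 and 4.24 to 9.92, 7.57 and 9.85 CPM (0.94, edgeR adjusted p = 6.9e-05). No control reached the lowest knockdown library, and MARCKS fell by 0.32 on the log2 scale. LINC00926 rose (0.87) downstream of TCF12, a transcription factor gene that fell (-0.31). The call of LINC00926 was lost without control library 2 (adjusted p = 0.0591) or knockdown library 2, at 0.58 (0.17).

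In other pairs both genes rose. LINC01619 overlaps the antiproliferative gene BTG1 on the same strand, and they rose by 1.03 and 0.48 on the log2 scale, so that shared reads are possible. The call of LINC01619 was lost without control library 3, at 0.66 (adjusted p = 0.0872), or knockdown library 2 (0.108). LINC01719 and NBPF10 rose by 1.02 and 1.04, in a family of near-identical copies whose reads may be shared. All pairs in these sentences other than LINC01134, LINC00337 and their neighbours were chosen as examples after their values had been seen.

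**Figure D5:**
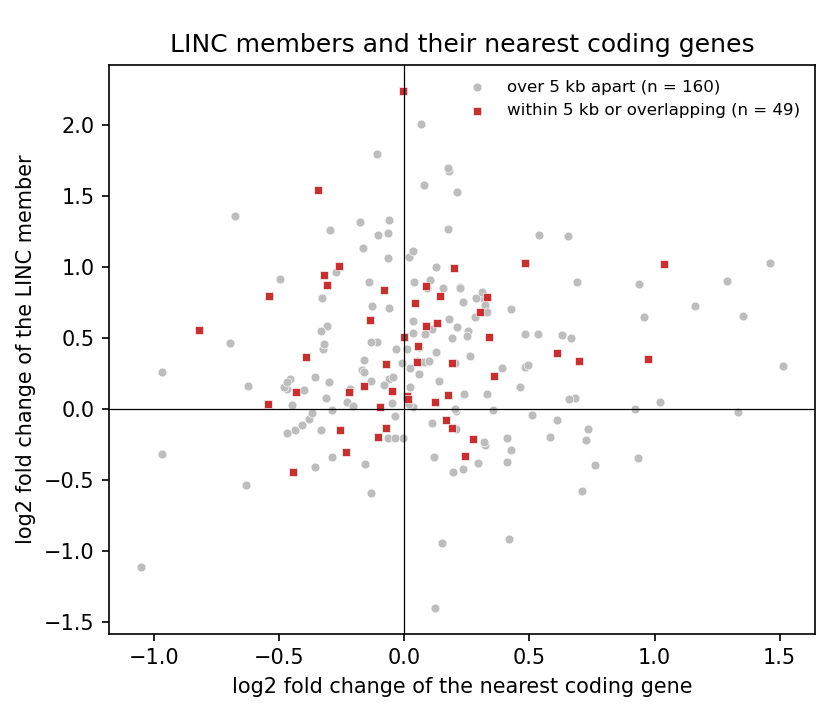
Log2 fold change of each LINC member (vertical axis) against that of its nearest tested protein-coding gene (horizontal axis), with 49 members within 5 kb or overlapping in red and 160 farther away in grey. Calls are not marked in the figure. Of the 59 members called higher, 19 had a neighbour called higher and 7 one called lower.

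Members also lay beside each other. In 6 pairs both members were within 50 kb, and in 1 of these both were called. LINC01687 (ENSG00000233215, minus strand) and LINC00308 (ENSG00000184856, plus strand) start 158 bases apart on chromosome 21 and point away from each other. LINC01687 was at 5.38, 3.67 and 4.17 CPM in controls and 7.74, 10.2 and 9.85 in knockdown libraries. The groups did not overlap (4.41 ± 0.88 against 9.26 ± 1.32, log2 fold change 1.07, SE 0.19, edgeR adjusted p = 2.0e-05). LINC00308, close to the lower limit of the set, had 9, 12 and 9 counts against 20, 21 and 32 (1.24, edgeR adjusted p = 0.039), again with every knockdown library the higher. Its call was lost in each fit that left out a library (adjusted p from 0.0561 to 0.183), under DESeq2 (0.0831), with the replicate number as a block (0.0564) and with offsets for length and G and C content (0.0891). LINC02294 and LINC02293 overlap on opposite strands of chromosome 14 and had values of 0.85 (not called, edgeR adjusted p = 0.0804) and 0.86 (called higher). LINC02294 passed the test without control library 3 (1.26, adjusted p = 0.023) or knockdown library 2 (1.15, adjusted p = 0.0235).

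The region between the starts of LINC01687 and LINC00308 is shown because it belongs to both members of that pair. The window of LINC00308 is chr21:22098367-22098666 on the plus strand of GRCh38.p14. Its capitals mark the only TATAAA in it on either strand, which begins 62 bases before the start, and the window of LINC01687 on the other strand shares 257 of these bases.
LINC00308: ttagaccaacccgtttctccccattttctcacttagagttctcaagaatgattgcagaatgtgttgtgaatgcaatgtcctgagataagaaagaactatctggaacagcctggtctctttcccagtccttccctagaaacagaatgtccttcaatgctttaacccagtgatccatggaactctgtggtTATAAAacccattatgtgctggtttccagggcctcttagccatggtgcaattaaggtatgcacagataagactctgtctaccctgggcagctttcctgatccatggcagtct

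A RefSeq window could be matched by name for 131 of the 209 members, and in 81 of them its start lay within 100 bases of the start in the deposited table. A smaller share of these windows was rich in CG (at least 50% G or C and a ratio of at least 0.6) than in the whole table of promoters: 45 of 131 (34.4%) against 12789 of 27195 (47.0%). Of the 45 CG-rich members 10 rose and 2 fell, with a median log2 fold change of 0.24, and of the other 86 members 24 rose and 0 fell, with a median of 0.31. TATAAA on either strand was found in 20 member windows (15.3%) and in 12% of all windows. It was in 8 of the 34 windows of members called higher (23.5%) and in 12 of the 95 of members not called (12.6%). The median G and C content of these windows also differed, 47.3% for members called higher and 55.0% for those not called. What part base content has in the motif counts was not tested.

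Further motifs were counted on both strands. CCAAT, the CCAAT box, was in 58 member windows (44.3%) and 35.7% of all, and TGACNNNGC, the core of the antioxidant response element, in 26 (19.8%) and 13.6%. CACGTG, the E-box, was in 13 (9.92%) and 7.45%, with 0 of them among the 34 members called higher and 13 among the 95 not called. TGANTCA, the AP-1 site, was in 9.16% and 7.73%, TGATGNAA, read by ATF4 with C/EBP factors, in 3.82% and 3.67%, and TGACGTCA, the cAMP response element, in 1.53% and 1.98%. Among the 34 windows of members called higher and the 95 of those not called, CCAAT was in 15 and 43 and TGACNNNGC in 4 and 22. For TGANTCA the counts were 4 and 8, for TGATGNAA 2 and 3 and for TGACGTCA 0 and 2. TGACNNNGC and TGANTCA can share bases. These are matches of letters in short windows, not sites of binding, and no test of these shares was made.

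The share of members called higher differed with length and base composition, and so did that of all tested genes. Of 104 members at or above the median exonic length 39 rose and 3 fell (median log2 fold change 0.41), and of 104 below it 20 rose and 3 fell (0.20). Split at the same length, 22.2% of the longer and 12.3% of the shorter of all tested genes at 1 CPM or more were higher. The shares lower were 23.7% and 24.3%. Of 104 members at or above the median G and C content of the exons 20 rose and 4 fell (0.21), and of 104 below it 39 rose and 2 fell (0.45). Over all tested genes at 1 CPM or more, 18% of those at or above that content and 22.1% of those below it were higher. Those lower made up 25.2% and 22.1%. In fits with offsets for length and composition, 49 members were called higher and 11 lower. In these fits the median of all tested genes shifted from 0.02 to -0.12 and that of the members from 0.32 to 0.18. The members' median lay 0.30 above that of all genes with and without offsets, and the offsets do not take level into account. Without offsets, the median of all tested genes was 0.32, 0.25, 0.14 and -0.07 over the 4 level ranges from low to high. That of the members was 0.42, 0.26, 0.21 and 0.27. What part level, length or composition has in the member counts was not tested. A near-identical copy elsewhere was found for 23 members, of which 7 rose (30.4%) and 1 fell, and of the 186 without one 52 rose (28%) and 5 fell.

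Genes of the machinery that ends and degrades such RNAs were read in the same fit. The list for the nuclear exosome and its adaptors also held the nuclear 5′ exonuclease gene XRN2. Of its 22 tested genes, 2 were higher, 9 lower and 11 not called, with a median log2 fold change of -0.17. That is 40.9% lower, against 21.6% of all tested genes and 33.9% of coding genes at 10 CPM or more. Those lower include EXOSC5, a core subunit, at 16.3 ± 1.52 CPM in controls and 9.10 ± 0.524 in knockdown libraries (-0.85, edgeR adjusted p = 3.3e-06), and MPHOSPH6, an exosome cofactor (-0.45). XRN2 (-0.24) was also among these 9. ZFC3H1, which links polyadenylated nuclear RNA to the exosome, was higher (0.28). Of 29 genes of Integrator and 3′ end processing 6 were higher, including CPSF7 (0.30) and INTS3 (0.39), 6 lower, including CLP1 (-0.39) and CPSF2 (-0.28), and 17 not called, which is 20.7% in each direction. Of 23 genes of cytoplasmic decay 5 were higher, including the deadenylase genes PAN2 (0.77) and PAN3 (0.37), 4 lower, including CNOT7 (-0.23) and DCP1A (-0.41), and 14 not called, or 21.7% higher and 17.4% lower. Whether these levels have a part in those of the LINC-named RNAs was not tested.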

How the data were processed

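RNA-seq of 6 Huh7 libraries was read from the table deposited by the authors, which holds raw counts per gene. SAMtools, StringTie and HISAT2 and the build hg38 are listed, without roles, per the submitters' processing notes. The counting program and its annotation, strand setting and treatment of multiple matches were not given in the sources used here. Rows repeat 127 gene names, with no difference between the repeats in their counts, so 1 row per GeneName was kept (1521 rows removed). The deposited log2 fold changes and p-values of the authors' own comparison were not used.

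Counts were tested with edgeR 4.0.16 in R 4.3.3 (TMM scaling, filterByExpr, quasi-likelihood test, no covariate) on 15968 genes, with Benjamini-Hochberg adjustment over all of them, and genes were called at an adjusted p under 0.05. Normalised CPM are TMM-scaled, and the rule for members used plain CPM. Depth was 16258803 to 18106207 counts per library. DESeq2 1.42.0, other scalings and filters, length and GC offsets and the omission of each library were alternatives. The fitting code was tested on simulated data. Gene types, positions and exonic lengths came from GENCODE release 29, promoter windows from RefSeq GRCh38.p14, and near-identical copies (at least 97% identity over at least 300 bases) from BLAST 2.17.0.

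The members, the lists and the rule for names were chosen with earlier results of these data known. The rule named the 8 members of highest level, the 12 largest rises and up to 12 largest falls among called members, the 3 names on each side of 1 CPM, every listed member and coding neighbours of named members, and up to 4 called genes of each RNA turnover list. Members named outside it are marked as such where they appear, except LINC00526, LINC01687, LINC00308, LINC02293 and LINC02294. Those lie outside the rule too and were named for their position beside another member.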

Additional observations from a re-analysis of the deposited data

How the results depend on the processing

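The number of members called higher stayed between 46 and 61, and lower between 3 and 11, over the changes of scaling, filter, tool and library set that were run at the same member set. With the size condition of 2-fold there were 24 higher and 2 lower, and with a mean of 5 CPM or more 33 higher. DESeq2 called 47 higher and 3 lower. Offsets for length and GC gave 49 and 11, and over all genes 1917 higher and 5393 lower instead of 2982 and 3451. The 2-fold condition left 676 and 153 of all genes. The median log2 fold change of the members was 0.18 with offsets, 0.26 at 2 CPM or more, 0.27 at 5 CPM or more, and 0.27 to 0.36 when each library was left out. The share of risen members with a risen coding neighbour was 32.2% at any distance and 20% within 5 kb. The share of counts held by the members and CTSV kept their direction in every setting run.

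Of the 65 called members, 0 changed direction in any of 13 alternative fits. Among the members named in the text, directions reversed for 8 uncalled ones. With offsets the values were -0.11 (LINC00641), -0.076 (LINC01239), -0.19 (LINC00662), -0.030 (LINC01588), -0.095 (LINC01578) and -0.089 (LINC02163). With each library left out they ranged from -0.043 to 0.077 (LINC00641), -0.082 to 0.11 (LINC01239), -0.23 to 0.067 (LINC01348), -0.15 to 0.15 (LINC00662), -0.031 to 0.27 (LINC00847), -0.13 to 0.49 (LINC01588), -0.041 to 0.21 (LINC01578) and -0.14 to 0.51 (LINC02163). With the offsets, the median of all tested genes also shifted, from 0.02 to -0.12. The cause of these changes was not tested.

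The deviations of same-numbered libraries had correlations of -0.0137, 0.00731 and 0.0336, and those of differently numbered ones from -0.0534 to 0.0444. With 3 libraries per group, these values cannot exclude a pairing by number. With the replicate number as a block 57 members were higher and 5 lower. Counts under about 20 per library limit the members near 1 CPM, whose median SE was 0.44 on the log2 scale against 0.12 at 10 CPM or more. Alternatives that kept members at 1 CPM in both groups (49 and 5), without copies (52 and 5) or away from coding genes were added after seeing the data.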

Other observations

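LINC names below the limit of 1 CPM were also called higher more often than lower where they could be tested. Their 56 tested names had a median log2 fold change of 0.45, and 39 of the values were above 0, but only 7 passed the test with edgeR, all of them rises. As the filter admits a scarce RNA through the group where it is higher, this count is a description of these libraries only.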
